A study of Homo sapiens with 4 samples.

Results

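The genes described here are 36 components and regulators of DNA replication and S phase entry, listed by symbol: origin licensing and helicase loading, helicase activation, the replicative polymerases, the sliding clamp and its loader, Okazaki fragment joining, deoxynucleotide supply, the cyclin E and E2F regulators of the G1/S transition, and UHRF1. Of the 36, 35 were found among the 27106 genes of the deposited table and all 35 passed the filter on low values, while E2F2 was not analysed here. Their RNA was measured by sequencing of total RNA from THP-1, an established human monocytic leukaemia line with an MLL-AF9 fusion. The 2 knockdown libraries came from THP-1 cells given an antisense oligonucleotide against the long noncoding RNA SGOL1-AS1, and the 2 non-targeting libraries from THP-1 cells given a non-targeting oligonucleotide, all marked day 5. No other treatment is stated for either group, and an effect of losing the target and any other effect of the targeting oligonucleotide cannot be told apart. The labels do not say whether the libraries of a group came from separate cultures, and p-values here reflect the spread among 4 libraries, part or all of which may be technical.

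The libraries held 41435922 to 51851314 gene reads, and no library was a copy of another. The knockdown columns were placed in their group by elimination, because their headings hold a code found nowhere in the labels, and each direction below rests on that. The target, under its current symbol SGO1-AS1, had 12 and 17 reads in the knockdown libraries and 24 and 21 in the non-targeting libraries, a difference within the fit's error (limma, log2 fold change -0.48 ± 0.37 SE, adjusted p = 0.555), so its level does not check the labels. All 12 monocytic markers listed were present. They summed to 107886 and 102876 normalized counts in the knockdown libraries and 112214 and 106322 in the non-targeting libraries. Most of that sum came from LYZ, the lysozyme gene, at 36975 to 40116, and CEBPA, at 32928 to 40440. CD14 and CD68 were low, at 94.7 to 110 and 16.0 to 21.6, below the fibroblast gene COL1A1 at 176 to 188. Of the 12 monocytic markers, CD4 and FCGR1A, a high-affinity Fc receptor, were called lower in the knockdown (limma, log2 fold change -0.35 and -0.37, adjusted p = 0.000193 and 0.00118). The share called lower was 3.4% of all genes tested and 6.15% of the 8961 genes at least as abundant as the lowest replication gene. The T cell, B cell, erythroid and megakaryocyte, epithelial and fibroblast lists summed to at most 188 per library, with 1 of 4, 2 of 3, 2 of 5, 0 of 3 and 1 of 3 genes in the table.

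DNA replication starts when the origin recognition complex, with CDC6 and CDT1, loads the ring-shaped MCM helicase on DNA in G1 phase. At the start of S phase CDC45 and the GINS complex join the ring and activate it, polymerase alpha and its primase lay down primers, and polymerases delta and epsilon, held by the PCNA clamp, copy the strands. E2F transcription factors, released when cyclin E kinases and the D cyclin kinases inactivate the retinoblastoma protein, drive many of these genes, so they usually rise and fall together with the share of dividing cells. In a bulk sample, fewer cells in S phase and less RNA per S phase cell cannot be told apart.

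A feature the list was not chosen on is the promoter sequence. RefSeq promoter windows (GRCh38.p14), 250 bases before to 50 after the transcript start, were matched by symbol for 32 of the 36 genes. Missing were MCM4, MCM5, GINS4 and CCNE2. The windows were searched on both strands for the letters TTTCGCGC, TTTGGCGC and TTCCCGCC, forms of the E2F recognition sequence, and for CCAAT, the NF-Y box. Matches on the opposite strands can overlap, as they did in MCM2 and MCM6. At least 1 of the E2F forms was present in 20 of the 32 genes (62.5%), compared with 4.24% of all 35116 windows and 8.37% of the 11815 tested genes with a window. CCAAT was present in 19 of the 32 (59.4%), compared with 34.6% of all windows and 42.6% of the tested genes. MCM2, MCM3, MCM6 and RFC4 held more than 1 match in a window, while ORC1, ORC6, MCM10, CDC45, GINS3, POLD1, RFC3, RFC5, FEN1, RRM2, TYMS and CCNE1 held none of the E2F forms. A match is a description of the letters and not a bound site. Only these exact letters were searched for, so other forms of the E2F sequence are unmarked, and a gene without a match may hold one. The 4 printed here belong to the gene with a match and the highest normalized count, not divided by length, in each of 4 roles. They run 5′ to 3′ on the gene's strand from 250 bases before the start to 20 bases after it, with the E2F forms in capitals.
MCM3 promoter, chr6:52284723-52284992, minus strand: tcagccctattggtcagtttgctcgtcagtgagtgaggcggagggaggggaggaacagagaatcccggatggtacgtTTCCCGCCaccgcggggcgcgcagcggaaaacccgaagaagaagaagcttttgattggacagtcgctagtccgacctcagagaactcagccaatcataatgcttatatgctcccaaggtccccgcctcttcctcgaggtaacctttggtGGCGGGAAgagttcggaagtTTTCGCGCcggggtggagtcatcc
UHRF1 promoter, chr19:4909251-4909520, plus strand: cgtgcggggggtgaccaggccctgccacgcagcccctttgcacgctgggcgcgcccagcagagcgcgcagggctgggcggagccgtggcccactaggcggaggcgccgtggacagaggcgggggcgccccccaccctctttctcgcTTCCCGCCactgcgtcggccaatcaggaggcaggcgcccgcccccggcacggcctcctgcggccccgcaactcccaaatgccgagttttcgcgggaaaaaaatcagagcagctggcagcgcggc
RRM1 promoter, chr11:4094435-4094704, plus strand: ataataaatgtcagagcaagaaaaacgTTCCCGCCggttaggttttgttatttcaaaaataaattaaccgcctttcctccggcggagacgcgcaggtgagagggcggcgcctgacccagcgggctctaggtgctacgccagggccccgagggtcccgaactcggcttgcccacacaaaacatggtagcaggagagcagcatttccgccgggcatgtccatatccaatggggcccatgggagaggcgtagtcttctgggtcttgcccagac
POLE promoter, chr12:132687323-132687592, minus strand: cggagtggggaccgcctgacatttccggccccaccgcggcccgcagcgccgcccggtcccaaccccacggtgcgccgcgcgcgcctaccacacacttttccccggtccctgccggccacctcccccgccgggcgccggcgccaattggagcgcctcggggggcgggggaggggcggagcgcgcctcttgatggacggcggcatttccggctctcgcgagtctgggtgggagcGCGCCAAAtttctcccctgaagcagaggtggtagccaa

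MCM3 held TTCCCGCC 173 bases before the start, its reverse complement 24 bases before, and TTTCGCGC 4 bases before. UHRF1 held TTCCCGCC 104 bases before its start, RRM1 223 bases before, and POLE held TTTGGCGC on the other strand 18 bases before. The 19 tested genes with a searched E2F form had a median log2 fold change (knockdown over non-targeting) of -0.06 and a range of -0.19 to 0.14. The 12 without a searched form had a median of -0.06 and a range of -0.12 to 0.05.

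As to the comparison of the groups, the replication genes were close to equal in knockdown and non-targeting cells. None of the 35 passed the threshold (limma on log2 of the normalized count plus 1, adjusted p under 0.05 over all 19398 genes tested), where 3.4% of all genes tested were called lower and 0.851% higher. edgeR and DESeq2 on the recovered reads also called 0 of them. The smallest adjusted p was 0.112, for MCM2. At an unadjusted p under 0.05 there were 9 of 35 (25.7%), compared with 17.2% of all genes tested and 22.3% of the 8961 genes at least as abundant as the lowest replication gene, of which 6.15% were called lower and 0.949% higher. The fitted difference was under 10% for 32 of the 35 genes and under 5% for 20 of them. The 95% intervals, which are not widened for the number of genes, reached down to 0.801 of the non-targeting level, for CDT1, and up to 1.19 times it, for POLA1. In this fit each gene's own interval therefore leaves out a change of 1.25-fold in either direction, for CDT1 by a narrow margin. With a library left out, the log2 fold change of CDT1 ran from -0.294 to -0.078.

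Within that narrow range most of the genes lay slightly lower in the knockdown. The fitted log2 fold change was below 0 for 28 of 35 genes (80.0%), compared with 52.5% of all genes tested and 63.1% of the 8961 abundant genes. The median over the 35 was -0.06, compared with -0.01 over all genes tested and -0.03 over those 8961. Both knockdown values lay below both non-targeting values in 17 genes (48.6%), compared with 25.1% of all genes tested and 34.1% of the abundant ones. Both lay above in 3 genes (8.57%), compared with 21.6% and 17.1%, and the groups overlapped in 15. The genes' median deviation from the non-targeting mean was -0.09 in knockdown library 1 and -0.03 in knockdown library 2, with the non-targeting libraries at -0.001 and 0.001, so the shift was larger in knockdown library 1. Knockdown library 1 lay below knockdown library 2 in 25 of the 35 genes. The median was -0.03 without knockdown library 1 and -0.09 without knockdown library 2. The position against 0 also rests on the scaling. Quantile normalization gave a median of -0.01. Scaling each library to an equal total gave -0.001 with 18 of 35 genes below 0, while the median of all genes moved to 0.05. The gap to the median of all genes was -0.048 as reported and also with the equal total. It was -0.021 under quantile normalization, -0.025 without knockdown library 1 and -0.081 without knockdown library 2.

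**Figure D1:**
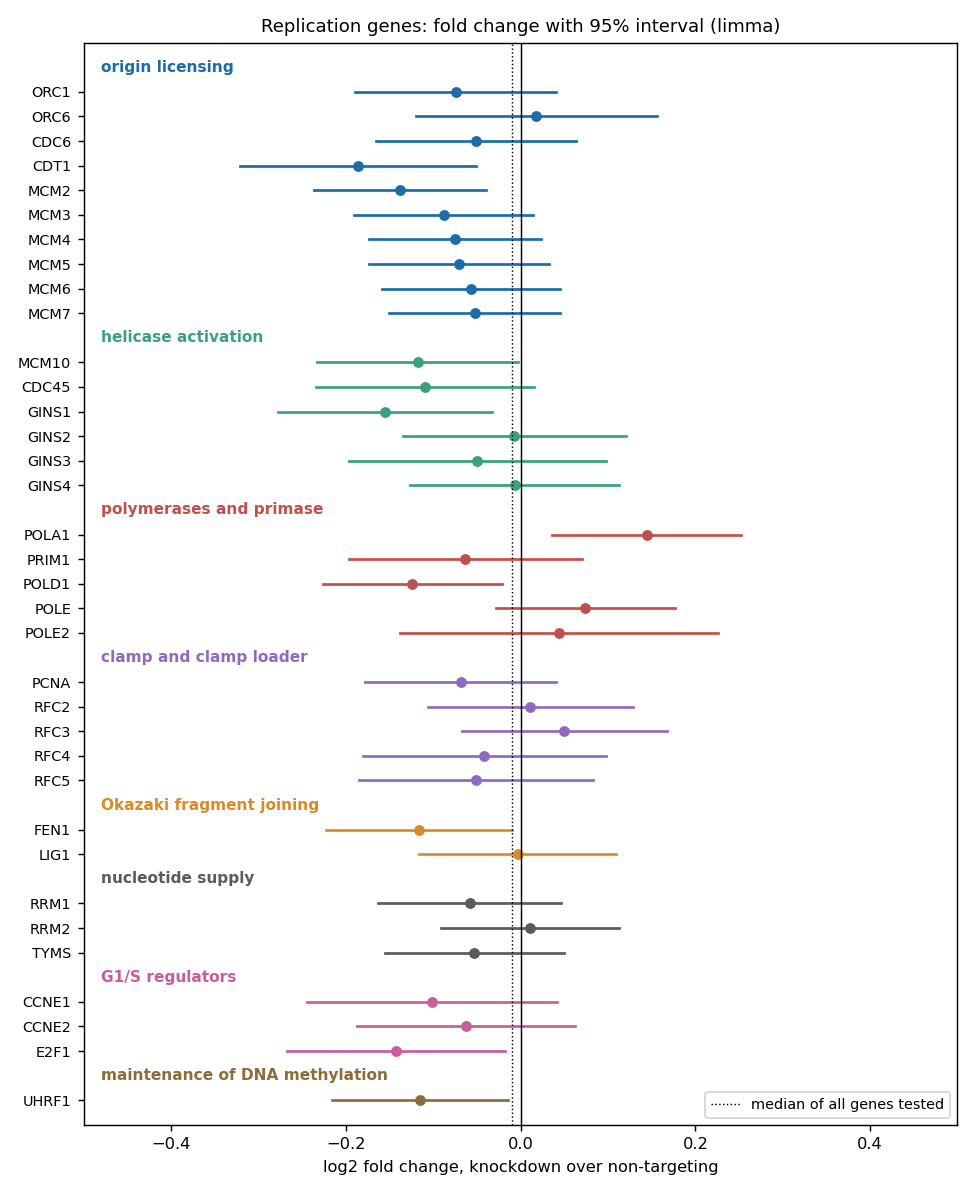
Log2 fold change of each of the 35 replication genes, knockdown over non-targeting, as a point with its 95% limma interval, grouped by role; the dotted line is the median of all genes tested. CDT1 at -0.19 and POLA1 at 0.14 mark the ends of the range, and the polymerase group is the one with most points above 0.

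**Figure D2:**
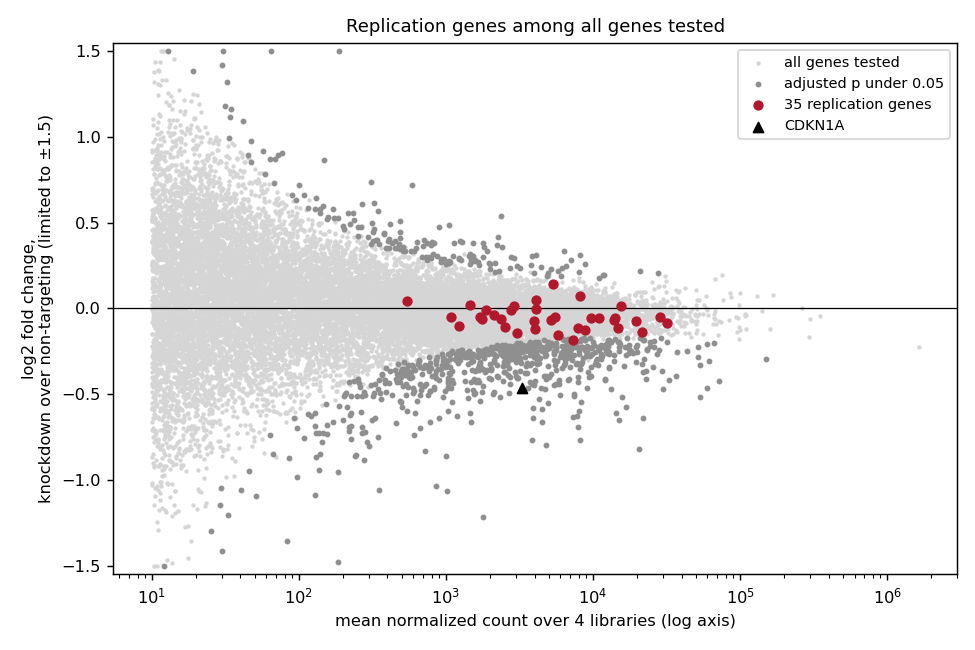
Log2 fold change, knockdown over non-targeting and limited to ±1.5, against the mean normalized count over the 4 libraries on a log axis, for all 19398 genes tested, with called genes in dark grey, the 35 replication genes in red and CDKN1A as a triangle. The replication genes lie between -0.19 and 0.14 and none is among the called genes, whereas CDKN1A, at -0.47, is.

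In origin licensing small differences in the same direction recurred across the helicase ring. Of the 10 genes 9 had a fold change below 0, with a median of -0.07, and in 6 of 10 both knockdown values lay below both non-targeting values, compared with 25.1% of all genes tested and 34.1% of the abundant ones. None of the 10 was called. Their median moved to -0.013 under quantile normalization and to -0.015 with the same total in every library. With the same total MCM6 stood at 0.000 and MCM7 at 0.005. MCM2, a subunit of the helicase ring (ENSG00000073111, GRCh38 chr3:127598223-127622436, plus strand), had 20263 and 20408 normalized counts in the knockdown libraries, against 22154 and 22601 in the non-targeting libraries. Both knockdown values were lower, with a fitted difference of -9.1% (log2 fold change -0.14 ± 0.05 SE; limma, adjusted p = 0.112). MCM3, another ring subunit, had 29882 and 31895 in the knockdown libraries, against 32872 and 32754 in the non-targeting libraries, again without overlap and again short of the threshold (-0.09, adjusted p = 0.377). MCM4 had 18861 and 19257 in the knockdown, against 19874 and 20278 in the non-targeting libraries. MCM5 had 13861 and 13302, against 13892 to 14630 in the non-targeting libraries, and MCM7 had 28039 and 28264, against 29174 and 29218. In MCM4, MCM5 and MCM7 the groups were separate, at log2 fold changes of -0.05 to -0.07. MCM6 was the ring subunit whose groups overlapped, with 13453 and 14176 in the knockdown and 14173 and 14560 in the non-targeting libraries. Summed over MCM2 to MCM7, the knockdown libraries had 124358 and 127302 normalized counts and the non-targeting libraries 132877 and 133302, so the knockdown mean was 94.5% of the non-targeting mean. An exact permutation test of 2 against 2 libraries cannot give a p below 0.333, so no test is given for such a sum. The sum also depends on the scaling between libraries.

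CDT1, the loading factor that geminin inhibits (ENSG00000167513, GRCh38 chr16:88803213-88809258, plus strand), had the lowest fold change of the whole list and libraries of each group that lay far apart. It had 7289 and 6453 normalized counts in the knockdown libraries, against 8410 and 7238 in the non-targeting libraries, so knockdown library 1 lay above the lower non-targeting library. The fit gave -0.19 ± 0.06 SE on the log2 scale (limma, adjusted p = 0.119), a difference of -12.1%. CDT1 passed the threshold when knockdown library 1 was left out (-0.27, adjusted p = 0.000318, with 5.73% of all genes called) or non-targeting library 2 (-0.29, adjusted p = 0.0115, with 2.8% called), and over all alternatives its adjusted p ran from 0.000318 to 0.835. ORC1, the largest subunit of the origin recognition complex, had 3756 and 4013 in the knockdown, against 4126 and 4051 in the non-targeting libraries, separate by a small margin (-0.07, adjusted p = 0.539). CDC6, the ATPase that helps load the ring, had 5159 and 5631 in the knockdown and 5506 and 5664 in the non-targeting libraries, and ORC6 had 1462 and 1492 against 1415 and 1503. Both overlapped, and ORC6 was the licensing gene with a fold change above 0, at 0.02 (adjusted p = 0.929).

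**Figure D3:**
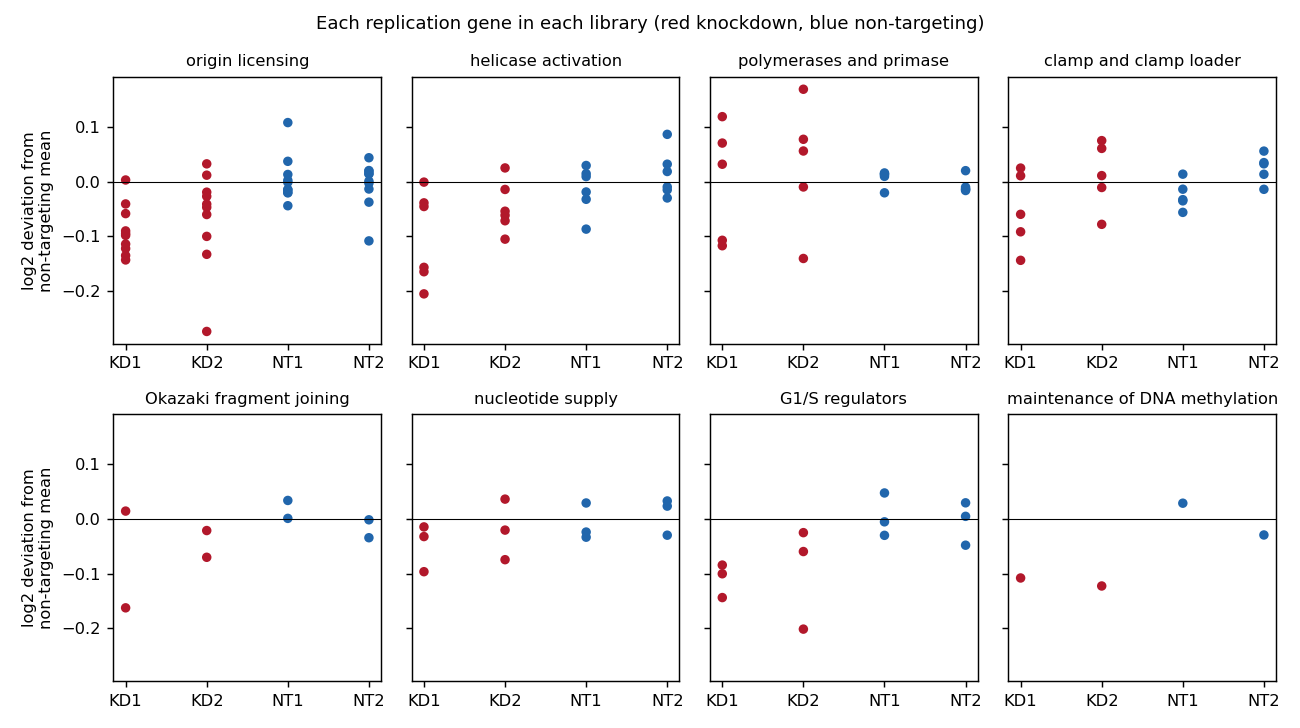
Each replication gene's log2 deviation from its non-targeting mean in each library, by role, with knockdown libraries KD1 and KD2 in red on the left and non-targeting libraries NT1 and NT2 in blue on the right. Licensing and helicase activation genes sit mostly below 0 in both knockdown libraries, lower in KD1, while 3 polymerase genes sit above 0 in both.

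All 6 helicase activation genes had a fold change below 0, compared with 52.5% of all genes tested and 63.1% of the abundant ones. Their median was -0.08 and none was called, and for GINS2 and GINS4 the fold change was -0.01. The median moved to -0.044 under quantile normalization and to -0.022 with the same total in every library, and GINS2 and GINS4 were above 0 in both settings. GINS1, a subunit of the GINS complex (ENSG00000101003, GRCh38 chr20:25407727-25452628, plus strand), had 5267 and 5645 normalized counts in the knockdown libraries, against 5718 and 6448 in the non-targeting libraries. The groups were separate, and the non-targeting libraries differed from each other by more than the groups did at their nearest (-0.16 ± 0.06 SE; limma, adjusted p = 0.159). Without knockdown library 2 GINS1 passed the threshold (-0.21, adjusted p = 0.0187, with 6.29% of all genes called). MCM10, which helps to activate the assembled helicase, had 3745 and 3995 in the knockdown, against 4225 and 4171 in the non-targeting libraries (-0.12, adjusted p = 0.273). CDC45, the helicase cofactor, had 2357 and 2518 in the knockdown, against 2570 and 2687 in the non-targeting libraries (-0.11, adjusted p = 0.371). Both were separate between the groups. GINS3 had 1069 and 1063 in the knockdown, against 1126 and 1081 in the non-targeting libraries, a difference of -0.05. GINS2 had 1879 and 1861 in the knockdown, against 1855 and 1904, and GINS4 had 2718 and 2841, against 2820 and 2763. Differences between the GINS subunits were not tested.

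Among the polymerases and primase 3 of 5 genes had a fold change above 0 and 2 below, with a median of 0.04 and none called. POLA1, the catalytic subunit of polymerase alpha that extends the RNA primer (ENSG00000101868, GRCh38 chrX:24693919-24996986, plus strand), had 5478 and 5672 normalized counts in the knockdown libraries, against 4973 and 5115 in the non-targeting libraries. It was the member with the highest fold change, 0.14 ± 0.05 SE, a level higher by 10.5%, and it stayed short of the threshold (adjusted p = 0.135 by limma). It passed with the same total in every library (0.20, adjusted p = 0.0371, with 2.72% of all genes called). POLE, the catalytic subunit of the leading-strand polymerase epsilon, had 8360 and 8400 in the knockdown, against 8038 and 7882 in the non-targeting libraries (0.07, adjusted p = 0.477). Its accessory subunit POLE2 had 543 and 552, against 537 and 525 (0.04, adjusted p = 0.855). These 3 are the genes in which both knockdown values lay above both non-targeting values. POLD1, the catalytic subunit of polymerase delta (ENSG00000062822, GRCh38 chr19:50384204-50418016, plus strand), went the other way, with 8590 and 8394 in the knockdown, against 9337 and 9168 in the non-targeting libraries (-0.12 ± 0.05 SE, adjusted p = 0.183). PRIM1, the primase catalytic subunit, had 1652 and 1780 in the knockdown, against 1804 and 1780 in the non-targeting libraries, and its groups overlapped.

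Ratios between genes of the same library do not depend on the scaling between libraries. For a few pairs, chosen after their values were seen and therefore given with no test, the ratio of normalized counts was computed per library. The POLE to POLD1 ratio was 0.973 and 1.001 in the knockdown libraries, against 0.861 and 0.860 in the non-targeting libraries, a difference of 0.20 on the log2 scale. The POLA1 to POLD1 ratio was 0.638 and 0.676 in the knockdown, against 0.533 and 0.558, and that of POLA1 to PRIM1 was 3.32 and 3.19, against 2.76 and 2.87. In these pairs the groups were separate by more than the spread within a group. Each pair sets a gene with a fold change above 0 over a gene with a fold change below 0, so the separation follows in part from the choice. The ratio of CDT1 to geminin (GMNN), the inhibitor that binds it, was 4.42 and 3.65 in the knockdown, against 4.69 and 4.10 in the non-targeting libraries, with overlap. That of cyclins CCNE1 to CCNE2 was 0.514 and 0.517, against 0.539 and 0.521, and that of the ring subunits MCM2 to MCM7 was 0.723 and 0.722, against 0.759 and 0.774.

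RFC2 to RFC5 of the clamp loader and the Okazaki fragment enzyme LIG1 lay close to equality in level, with overlapping groups. The clamp PCNA and the enzyme FEN1 lay slightly lower in the knockdown, with separate groups and neither called. PCNA, the ring that tethers polymerases to DNA, had 5073 and 5009 normalized counts in the knockdown libraries, against 5168 and 5409 in the non-targeting libraries. Its log2 fold change was -0.07 ± 0.05 SE (limma, adjusted p = 0.554). RFC2 to RFC5, the small subunits of the loader that opens the clamp, summed to 10545 and 11082 in the knockdown and 10579 and 10958 in the non-targeting libraries, so the knockdown mean was 100.4% of the non-targeting mean. Their fold changes ran from -0.05 for RFC5 to 0.05 for RFC3, and the groups overlapped in all 4, with RFC2 at 2908 in both knockdown libraries and 2914 and 2858 in the non-targeting libraries. RFC3 had 4063 and 4207 in the knockdown, against 3841 and 4152, and RFC4 had 1960 and 2259, against 2145 and 2186. RFC5 had 1614 and 1707 in the knockdown, against 1679 and 1762. FEN1, the nuclease that trims the flap of an Okazaki fragment (ENSG00000168496, GRCh38 chr11:61792637-61797244, plus strand), had 7388 and 7877 in the knockdown, against 8276 and 8261 in the non-targeting libraries (-0.12 ± 0.05 SE, adjusted p = 0.24). LIG1, the ligase that seals the nick FEN1 leaves, had 4164 and 4062 in the knockdown, against 4221 and 4026, the value nearest to equality in the list (-0.003, 95% interval -0.12 to 0.11).

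Nucleotide supply showed the smallest range of the roles with more than 2 genes. RRM1, the large subunit of ribonucleotide reductase, had 9220 and 9719 normalized counts in the knockdown libraries, against 9695 and 10019 in the non-targeting libraries (-0.06, 95% interval -0.16 to 0.05). RRM2, the small subunit that is made in S phase, had 15198 and 15743 in the knockdown, against 15001 and 15707 (0.01, 95% interval -0.09 to 0.11). TYMS, which makes thymidylate, had 10890 and 10576 in the knockdown, against 11364 and 10909, with the groups separate by a narrow gap (-0.05, 95% interval -0.16 to 0.05). In this fit the intervals of these 3 leave out a change of 1.25-fold in either direction. Adjusted p-values were 0.612, 0.941 and 0.644 (limma).

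Among the G1/S regulators, E2F1, the activating E2F factor (ENSG00000101412, GRCh38 chr20:33675683-33686404, minus strand), had 3000 and 2766 normalized counts in the knockdown libraries, against 3287 and 3076 in the non-targeting libraries. Both knockdown values were lower, and the gap between groups was narrower than the spread within either (-0.14 ± 0.06 SE; limma, adjusted p = 0.214). CCNE1, the cyclin E1 subunit of the kinase that starts S phase, had 1158 and 1227 in the knockdown, against 1274 and 1283 (-0.10, adjusted p = 0.489). CCNE2, its paralog, had 2253 and 2373, against 2365 and 2465, with overlap (-0.06, adjusted p = 0.658). UHRF1, which recruits DNMT1 to newly copied DNA (ENSG00000276043, GRCh38 chr19:4903080-4962154, plus strand), had 14366 and 14221 in the knockdown, against 15795 and 15171 in the non-targeting libraries. Its groups were separate and its difference, -0.12 ± 0.05 SE, did not pass either (adjusted p = 0.212).

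The order of the genes by level was close to the same in both groups. Levels were set per kilobase of 1 GENCODE 29 transcript, the annotated principal one or, for MCM3, MCM10, POLE, LIG1, CCNE1 and UHRF1, the longest one tagged basic. On this scale MCM3 had 9629 normalized counts in the knockdown and 10228 in the non-targeting mean, followed by MCM7 with 9520 and 9874. TYMS stood at 6458 and 6701, and MCM2 at 5614 and 6178. The remaining ring subunits lay at 3698 to 4556 in the knockdown and 3845 to 4799 in the non-targeting cells. The first 14 ranks, from MCM3 to CDT1, were held by the same genes in the same order in both groups. GINS3, at 469 and 485, and POLE2, at 308 and 299, were lowest in both. Neighbours such as MCM5, PCNA and MCM6 lay close together. They stood at 3843, 3709 and 3698 in the knockdown and 4035, 3891 and 3845 in the non-targeting cells. The library values of PCNA and MCM6 overlapped in both groups. MCM5 lay above PCNA in both knockdown libraries and above MCM6 in both non-targeting libraries, and overlapped them otherwise. The order depends on the length used: over all annotated exons in place of 1 transcript MCM5 moved from rank 7 to rank 13 and MCM4 from rank 5 to rank 10 in the non-targeting cells.

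**Figure D4:**
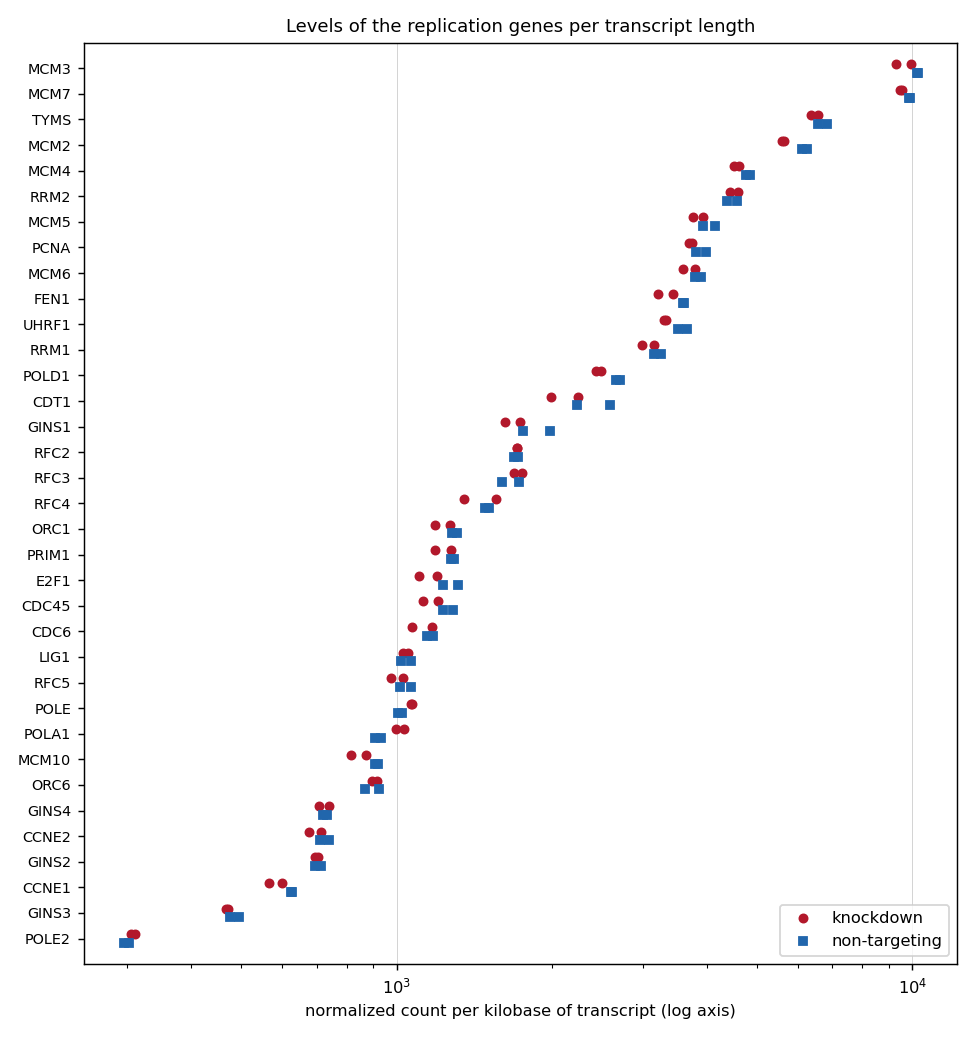
Normalized count per kilobase of the chosen transcript on a log axis for each of the 35 replication genes, with both knockdown libraries (red circles, upper) and both non-targeting libraries (blue squares, lower), ordered by the non-targeting mean. The genes span levels from 299 (POLE2) to 10228 (MCM3) in the non-targeting mean, and the distance between the groups is small beside that span.

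Other genes of the pathway, from a list fixed with earlier results of these data known, had a median log2 fold change of -0.01, the same to 2 decimals as that of all genes tested. Of 75 listed, 74 were tested, and 39 had a fold change below 0, compared with 52.5% of all genes tested. Only CDKN1A of the 74 passed the threshold (limma), where 3.4% of all genes tested were called lower and 0.851% higher. CDKN1A, the p21 inhibitor of cyclin-dependent kinases and of PCNA, fell to 2524 and 2984 normalized counts in the knockdown libraries, against 3716 and 3866 in the non-targeting libraries (-0.47 ± 0.07 SE, adjusted p = 0.000142). The groups lay well apart, and the call was lost only in the fit without a mean-variance trend (adjusted p = 0.343), in which no gene of the table was called. In each role the extremes were as follows. Among the other licensing and firing genes (14 tested, 4 below 0), ORC5 was highest at 0.09 and the helicase RECQL4 lowest at -0.11 (adjusted p = 0.538 and 0.365). Among 8 fork protection and checkpoint genes the kinase ATR was at 0.10 and the fork protector TIPIN at -0.14 (adjusted p = 0.397 and 0.356). Among 13 further polymerase and clamp loader genes POLA2, the polymerase alpha accessory subunit, was at -0.17 while POLA1 was at 0.14, and CHTF8, at 49.0 to 71.0 normalized counts, was at 0.22 (adjusted p = 0.274 for POLA2 and 0.698 for CHTF8). Among 6 Okazaki and topoisomerase genes RNASEH2B was at 0.11 and DNA2 at -0.04 (adjusted p = 0.262 and 0.832).

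Nucleotide supply outside the main list had 6 of 9 genes below 0, and the groups were separate and lower in the knockdown in all 6, compared with 25.1% of all genes tested and 34.1% of the abundant ones. None of the 9 was called. The S phase thymidine kinase TK1 was lowest, with 7467 and 7217 normalized counts in the knockdown, against 8482 and 7802 in the non-targeting libraries (-0.15, adjusted p = 0.13), and SHMT1 was highest at 0.24 with overlapping groups (adjusted p = 0.52). Among 18 other G1/S regulators 12 were below 0, compared with 52.5% of all genes tested and 63.1% of the abundant ones. E2F8, a repressing E2F, was highest in that role at 0.12, with 2784 and 2681 in the knockdown against 2516 and 2499 (adjusted p = 0.272). Of the 6 tested chromatin assembly genes SLBP, which binds histone mRNA ends, came nearest to a call, with 5580 and 5742 in the knockdown against 6314 and 6360 (-0.16, adjusted p = 0.0778). CHAF1B was highest in that role, at 0.003 (adjusted p = 0.99).

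**Figure D5:**
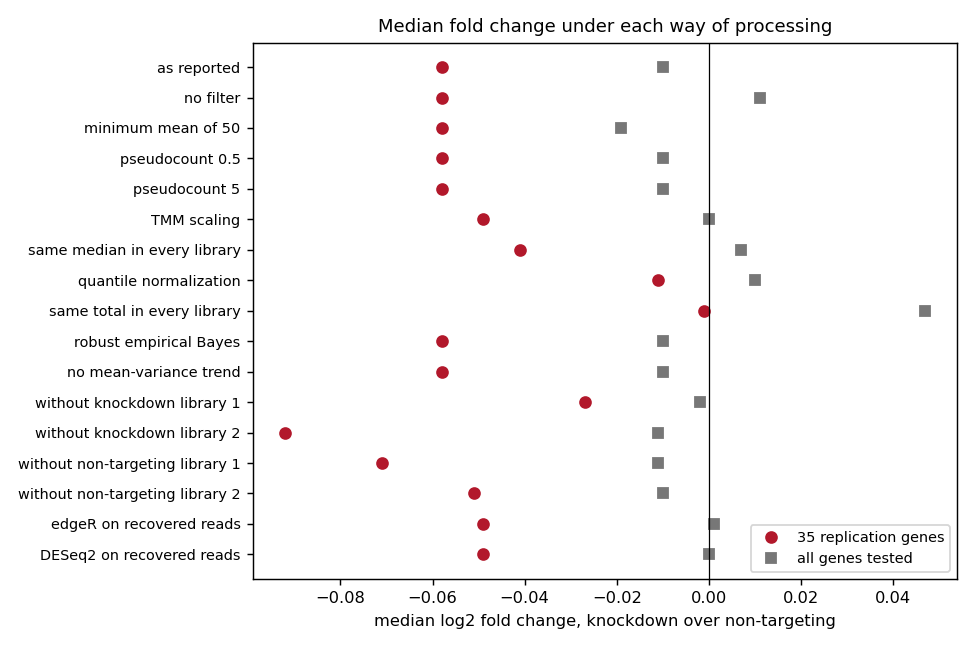
Median log2 fold change, knockdown over non-targeting, of the 35 replication genes (red circles) and of all genes tested (grey squares) under each way of processing. The median of the replication genes lies below that of all genes at each of the 17 settings. Both medians move to the right with the same total in every library, to -0.001 and 0.05. All genes tested include less abundant ones. Over the 8961 genes at least as abundant as the lowest replication gene the median as reported was -0.03, and it is not shown for the other settings.

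For some of the genes, reads cannot be assigned to 1 gene with certainty, because the strand setting of the counting is not given in the sources used here. In GENCODE 29, 46.6% of the exonic bases of TYMS are shared with exons of other genes, mostly ENOSF1 on the opposite strand. The share was 37.1% for CCNE2, mostly INTS8, 23.6% for MCM2 and GINS4, 21.6% for PRIM1 and 20.2% for RRM2, while 20 of the 35 genes shared no exonic base. Processed copies of PCNA (PCNAP4), FEN1 (FEN1P1) and RRM2 (RRM2P3) were at 27.8 to 42.2, 0 to 4.70 and 9.60 to 19.8 normalized counts, far below the genes themselves.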

How the data were processed

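RNA extraction used Qiagen's RNeasy Plus Mini and library preparation NEBNext Ultra II, per the labels' protocols. For each gene and library the authors deposited a normalized signal, which the values themselves show to be whole reads over a size factor of the library. STAR 2.5.1b, DESeq2 (no version) and GRCh38 are named without role, per the submitters' processing notes; the counter, its annotation and its use of strand are not given in these sources. Whole reads were recovered from every value (within 0.01 of a read). No gene had fewer than 2 reads in knockdown library 1, whereas 2092 to 2375 genes had so few in each other library.

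Symbols were matched for 26579 of 27106 identifiers, and positions come from GENCODE 29 (GRCh38). The test was limma 3.58.1 (R 4.3.3) on log2(value + 1), with its trend on mean expression, for the 19398 genes averaging 10 or more. Adjustment was by Benjamini-Hochberg over those genes at a threshold of 0.05. Such fold changes understate those of low genes. Fold changes are knockdown over non-targeting, and knockdown libraries are numbered in column order. Chi-square per degree of freedom was 5.49 between the knockdown, 4.94 between the non-targeting and 9.50 to 13.5 between libraries of different groups. Alternatives were other filters, pseudocounts, scalings and variance settings, leaving out each library (the lone library of a group is then assumed to vary like the others), count tests of the recovered reads (edgeR 4.0.16, DESeq2 1.42.0), and a threshold of 0.1; the tests were tested on simulated data. All members were named, with every called gene and the extremes of each role from the other pathway genes. The members and lists were chosen with earlier results of these data known. A planned search of protein sequences was not run.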

Additional observations from a re-analysis of the deposited data

How the results depend on the processing

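Of the 35 replication genes none was called in 12 of 16 alternatives and at the threshold of 0.1, and 1 was called in each of the other 4: CDT1 without knockdown library 1 or non-targeting library 2, GINS1 without knockdown library 2, and POLA1 with the same total, so the count was 0 to 1 with a library left out. Their median stayed below 0 in all 16, at -0.011 under quantile normalization, at -0.001 with the same total, and from -0.092 to -0.027 with a library left out. Over all genes the counts of lower and higher calls were 334 and 142 under quantile normalization, 293 and 235 with the same total, 650 and 291 with the same median, 379 and 66 by DESeq2, 0 and 0 without the mean-variance trend (2337 at an unadjusted p under 0.05), and 949 and 344 at a threshold of 0.1; with a library left out they ran from 334 (without non-targeting library 1) to 960 (without knockdown library 1) and from 87 (without non-targeting library 1) to 309 (without knockdown library 2). On the recovered reads edgeR called 715 genes in all and DESeq2 445. Of the other pathway genes 0 were called without the trend, and 1 to 3 with a library left out, with RECQL4 added without knockdown library 1 and SLBP and SAMHD1 without knockdown library 2. CDKN1A was called in 15 of 16 alternatives, from -0.586 to -0.345.

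Of 560 values of single replication genes 37 changed sign, none of them called. GINS2, GINS4 and LIG1 stood at 0.002, 0.003 and 0.006 with TMM and with edgeR, 0.001, 0.002 and 0.006 with DESeq2, 0.010, 0.010 and 0.014 with the same median, 0.032, 0.024 and 0.038 under quantile normalization, and 0.050, 0.051 and 0.054 with the same total. With the same total MCM6 was at 0.000, MCM7 at 0.005, CDC6 at 0.006, RFC4 at 0.016, RFC5 at 0.006, GINS3 at 0.008 and TYMS at 0.004, and DNA2 was at 0.019 there and 0.000 under quantile normalization. With a library left out the ranges were -0.026 to 0.062 for ORC6, -0.114 to 0.012 for CDC6, -0.026 to 0.011 for GINS2, -0.039 to 0.025 for GINS4, -0.003 to 0.025 for RFC2, -0.006 to 0.106 for RFC3, -0.144 to 0.061 for RFC4, -0.037 to 0.031 for LIG1, -0.022 to 0.044 for RRM2, -0.030 to 0.462 for CHTF8, -0.090 to 0.013 for DNA2 and -0.055 to 0.060 for CHAF1B. The causes were not tested. No paired analysis was possible because the knockdown columns, headed r3 and r2, share only 1 number with the non-targeting columns r1 and r2 and are not tied to single samples. Depth limits low genes most: the 95% half-width was 0.10 for MCM7 and 0.18 for POLE2.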
